A study of Mus musculus with 20 samples.

Results

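The comparison described here is a difference of differences: how far skin from Sod2 conditional knockout mice differed from control skin at 300 days of age, less how far it differed at 100 days. It asks which genes had another genotype difference in older than in younger mice. For each named gene, log2 of the knockout over the control level at 100 days was subtracted from the same log ratio at 300 days, with 1 added to each level. This value is called the age contrast below. A positive age contrast means that the knockout stood higher relative to its own control at 300 than at 100 days, and a negative one that it stood lower. It rests on 11 of the 20 samples and 4 of the 6 groups. Of 19247 named genes, 12135 had a mean of at least 1 FPKM (mapped fragments scaled for transcript length and library size) over all 6 groups and were compared.

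The 4 groups were total skin of C57BL/6 mice: Sod2+/+ controls at 100 days (n = 2) and 300 days (n = 3), and Sod2-/- conditional knockouts, abbreviated cKO, at 100 days (n = 3) and 300 days (n = 3). Ribosomal RNA was removed with 1 of 2 commercial kits before stranded libraries were made, and no source used here says which kit served which group, how deep the sequencing was or in which cells Sod2 was deleted. The 2 groups of the series at other ages were used only in the filter on low values. The table analysed holds 1 FPKM value per group, so there is no spread between mice, no test and no p-value anywhere in this account. A gene is counted where its age contrast is at least 1 in size on the log2 scale, that is 2-fold, and "higher" and "lower" describe the 4 group values only.

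Sod2 encodes the manganese superoxide dismutase of mitochondria, which turns superoxide, a by-product of respiration, into hydrogen peroxide. Skin joins a keratinised epidermis, a collagen-rich dermis made by fibroblasts, fat, a thin sheet of striated muscle and hair follicles. Follicles pass through growth, regression and rest, and the inner root sheath and hair pigment are made during growth. RNA from whole skin mixes all of these, so fewer cells of a type and less RNA per cell cannot be told apart in any result below.

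Sod2 itself had nearly the same genotype difference at both ages. Its level was 27.7 FPKM in control and 17.6 FPKM in cKO skin at 100 days, and 23.5 FPKM in control and 16.8 FPKM in cKO skin at 300 days. Sod2 was lower in cKO skin each time, with an age contrast of 0.17. Igf1, a growth factor, had an age contrast of 0.06. Junb, which encodes an AP-1 subunit, had one of -0.63, below the size counted, and its annotated span overlaps the coding gene Prdx2. Among 21 measured genes of superoxide and peroxide defence none reached the size counted, and their median age contrast was 0.06. Sod1, the cytosolic enzyme, was 169 and 88.2 FPKM in control and cKO skin at 100 days and 153 and 85.4 FPKM at 300 days, an age contrast of 0.09.

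The sex-linked genes followed genotype at both ages. Uty, Kdm5d, Ddx3y and Eif2s3y, all Y-linked, lay at or below 0.103 FPKM in both controls and between 14.7 and 45.0 FPKM in both cKO groups. Their age contrasts ran from -0.26 to 0.21. Xist, which shares its row of the table with Gm27733 and Gm27927, was 1141 and 2187 FPKM in the controls and 4.92 and 17.2 FPKM in the cKO groups. Sex and genotype therefore cannot be told apart at either age. Of the 14 genes chosen to check the tissue 13 were measured, and keratinocyte, fibroblast, endothelial, melanocyte and hair follicle genes were all present. Krt5 of the basal epidermis ranged from 358 to 578 FPKM over the 4 groups and Dcn of dermal fibroblasts from 193 to 298 FPKM. The leukocyte gene Ptprc, which encodes CD45, was 89.2 FPKM in the 300-day control and between 8.19 and 13.0 FPKM in the other groups.

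Most genes had a similar genotype difference at the 2 ages. The age contrast was under 0.5 in size for 8493 of the 12135 genes, and its median was -0.02. It was at least 1 for 465 genes (3.83%) and at most -1 for 569 genes (4.69%), together 8.52%. With the groups rescaled to equal FPKM totals the split was 695 and 537. Of the 1034 genes as measured, 54 were above 2 and 131 below -2. At 100 days cKO skin had 266 genes (2.19%) above and 520 (4.29%) below control by that size, together 6.48%. At 300 days it had 223 (1.84%) above and 615 (5.07%) below, together 6.91%. Across genes the 2 genotype differences had a Pearson correlation of 0.35 and a Spearman correlation of 0.38, given as a description since genes are not independent.

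**Figure D1:**
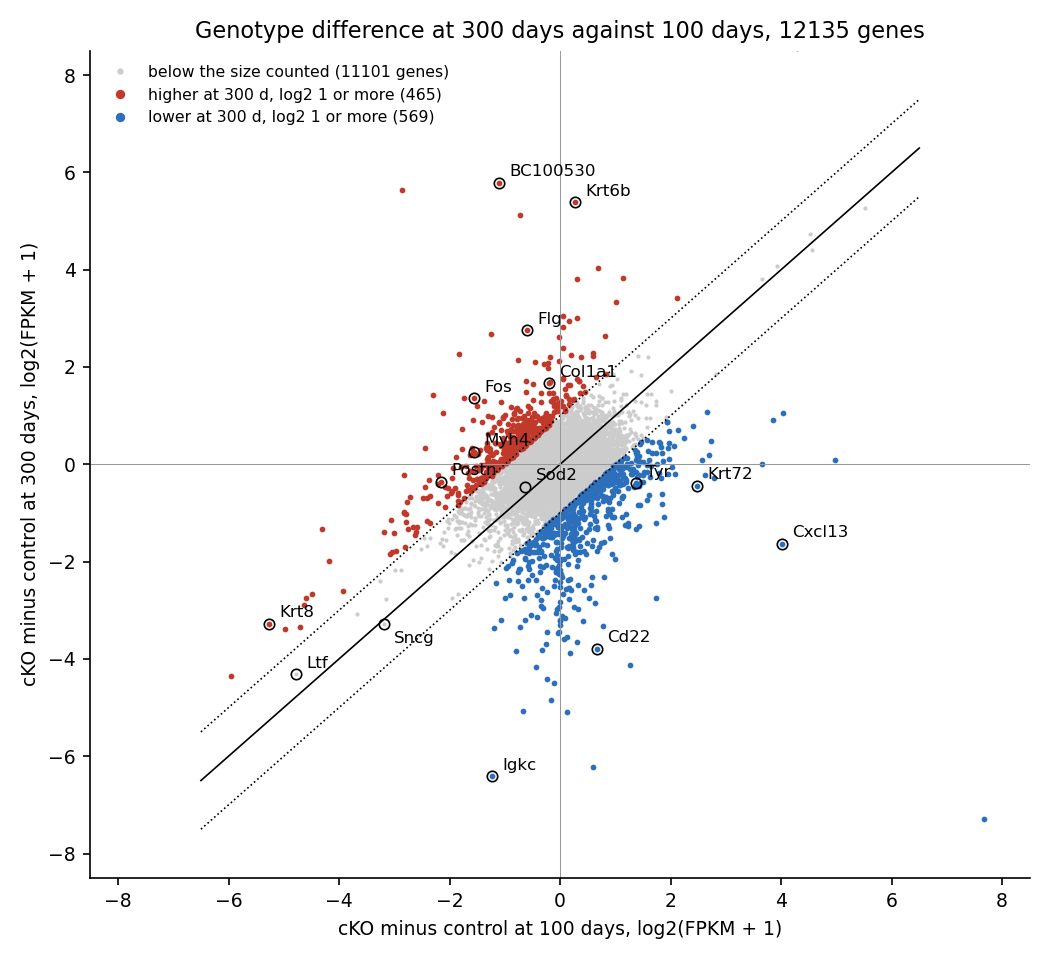
Each point is 1 of 12135 genes, with the log2(FPKM + 1) difference between cKO and control at 100 days on the x axis and at 300 days on the y axis. The solid line marks equal differences and the dotted lines an age contrast of 1 in either direction, with 465 genes above (red) and 569 below (blue); Ltf and Sncg lie near the line far from the origin, BC100530 and Krt6b far above it, and Igkc and Cxcl13 far below it. Lars2, Ttn and Defb8, each listed at 0 in at least 1 group, lie outside the axes.

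Genes past 2-fold at 1 age were mostly not past it at the other. Of the 786 genes past that size at 100 days 192 were also past it in the same direction at 300 days, 24.4% of the 786 and 22.9% of the 838 past it at 300 days. In 154 of these 192 the knockout was lower at both ages and in 38 higher. A further 25 genes were past the size at both ages with opposite signs: 12 were lower at 100 and higher at 300 days, and 13 the reverse. An age contrast past the size counted did not require either genotype difference to be: for 335 of the 1034 genes neither was.

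The 4 levels show which group carried an age contrast, taken as the group farthest from the median of the other 3 in log2(FPKM + 1). Whether that group lies above or below the others follows from the sign of the age contrast, so its direction is not a result. Among the 569 negative age contrasts the 300-day control was that group for 280 genes (49.2%), on the high side. The 100-day cKO was that group for a further 137 (24.1%), also on the high side. Among the 465 positive ones the 100-day cKO was farthest for 182 genes (39.1%), on the low side. The 300-day cKO was farthest for 136 (29.2%), on the high side. The 100-day control, which has only 2 samples, was farthest for 183 of the 1034 genes. When a mean of 5 FPKM or more was required, the 300-day control was farthest for 110 genes in place of 319, the 100-day control for 100, the 100-day cKO for 206 and the 300-day cKO for 121. Over all 1034 genes a control was farthest for 502 and a cKO group for 532.

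**Figure D2:**
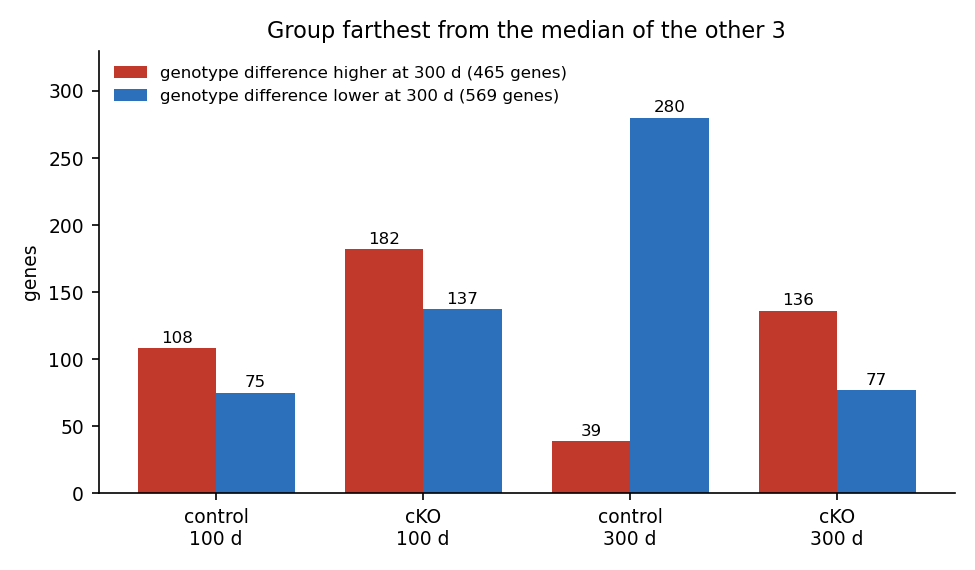
Bars give the number of genes for which each of the 4 groups lay farthest from the median of the other 3, separately for the 465 genes with a positive (red) and the 569 with a negative (blue) age contrast of at least 1 in size. The tallest bar is the 300-day control among negative age contrasts, with 280 genes, followed by the 100-day cKO among positive ones, with 182.

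Comparing each genotype with itself gives the same picture from the other side. Control skin held 415 genes (3.42%) higher and 124 (1.02%) lower at 300 than at 100 days, together 4.44%. Skin of cKO mice held 288 genes (2.37%) higher and 174 (1.43%) lower, together 3.81%. The 46 gene lists with at least 5 measured members differed widely in how far their median genotype difference at 300 days lay from that at 100 days. Over all genes the median genotype difference was 0.02 at 100 days and -0.01 at 300 days. The median age contrast was at least 1 in size in 6 lists, all negative: B and plasma cells, lymph node stroma, T and NK cells, melanocytes, the inner root sheath, and dendritic cells with MHC class II. Rescaling to equal totals left the dendritic cell list just short of that size at -0.999 and took 3 positive lists past it, with fast muscle at 1.11, simple epithelium at 1.03 and epidermal stress at 1.01. Fast muscle also passed it with 0.1 FPKM added (1.001) and with groups rescaled to a common median (1.009), and epidermal stress with a mean of 5 FPKM or more required (2.06).

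**Figure D3:**
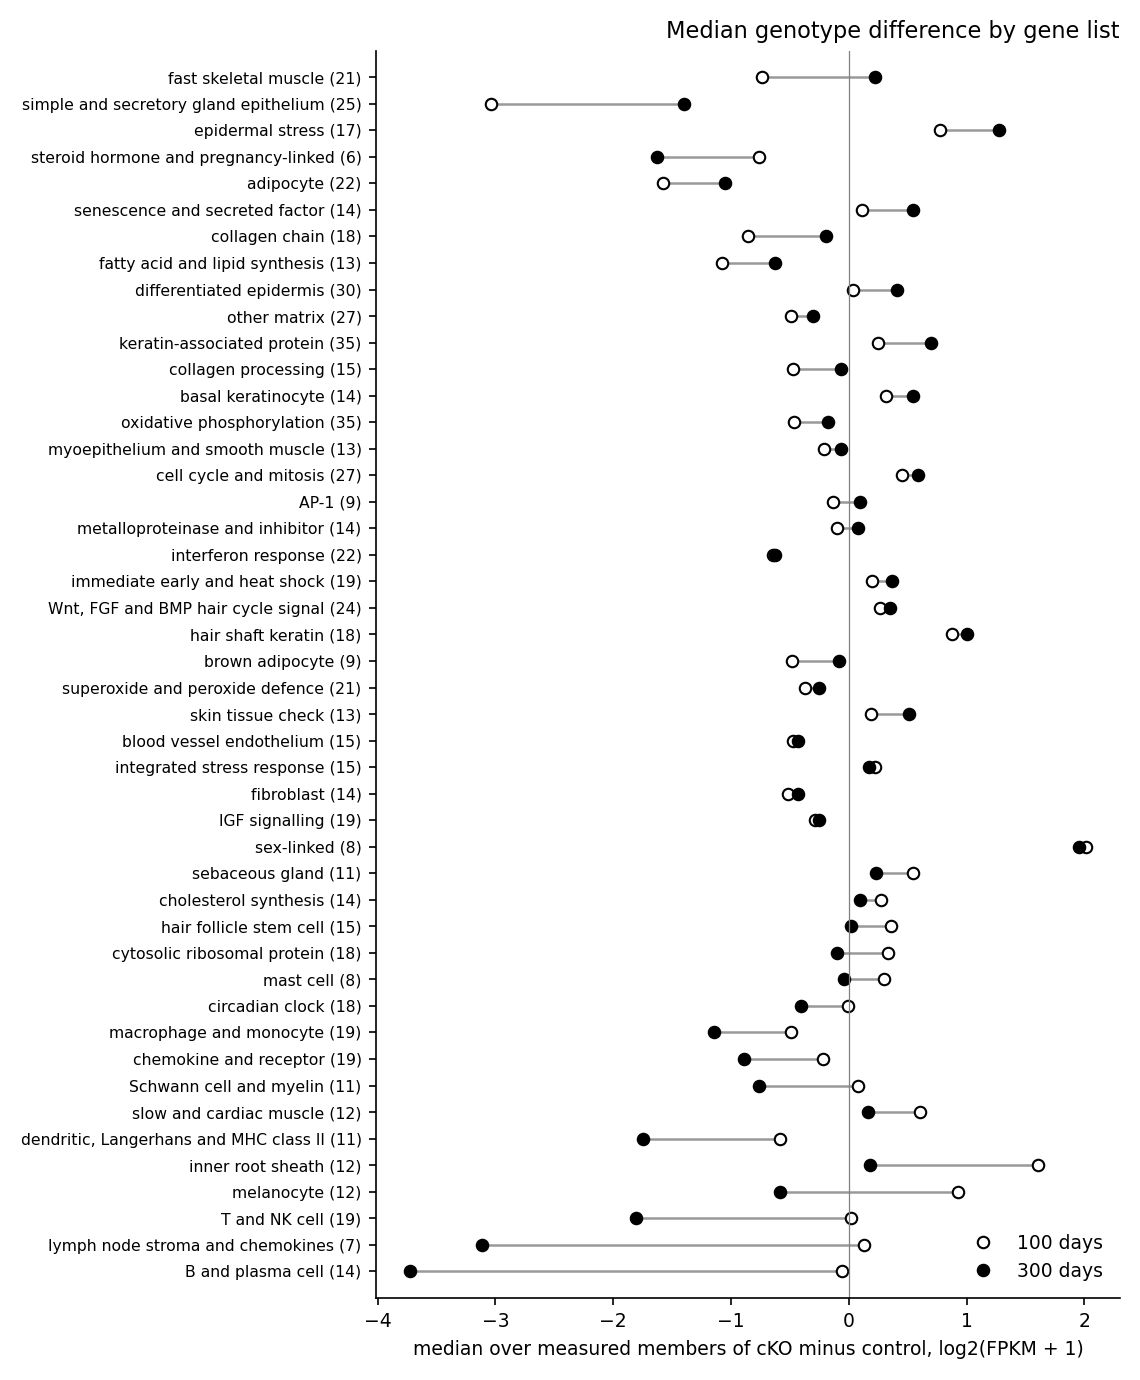
For 46 gene lists, with the number of measured members in brackets, the open circle is the median genotype difference (cKO minus control, log2(FPKM + 1)) at 100 days and the filled circle that at 300 days. Lists are ordered by the median age contrast of their members, which need not equal the gap between the 2 circles; lymphoid lists have filled circles far to the left, the inner root sheath and melanocyte lists open circles to the right, and fast muscle and collagen lists open circles to the left.

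Many of the lowest age contrasts belonged to genes of lymphocytes that were high in the 300-day control alone. All 14 measured B and plasma cell genes had an age contrast of -1 or below (background 4.69%), with a median of -3.73. Igkc, the constant region of the kappa light chain of antibodies (mm10 chr6:70726435-70726966), was 5.76 FPKM in the 100-day control, 1.88 in the 100-day cKO, 240 in the 300-day control and 1.84 in the 300-day cKO. Its age contrast of -5.18 thus comes from 1 high group. Cd22, an inhibitory receptor of B cells, was 0.0521, 0.668, 14.5 and 0.125 FPKM in the same order, an age contrast of -4.45. Ighd, the heavy chain of IgD, was 33.6 FPKM in the 300-day control and at most 0.669 FPKM elsewhere. The complement receptor Cr2 and the IgM receptor Fcmr also had their highest level there, at 30.7 and 18.9 FPKM, with age contrasts of -4.18 and -4.10. The summed FPKM of the 14 genes was 17.7, 12.7, 507 and 17.9.

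T and NK cell genes had the same shape at lower size. Of 19 measured genes 15 had an age contrast of -1 or below (background 4.69%) and none of 1 or above, with a median of -2.24. Trac, the constant region of the T cell receptor alpha chain, was 0.836, 0.361, 24.8 and 0.439 FPKM in the 100-day control, 100-day cKO, 300-day control and 300-day cKO. Cd2, an adhesion molecule of T and NK cells, was 0.638, 0.723, 26.0 and 1.24 FPKM. Cd4 of helper T cells was 10.9 FPKM in the 300-day control and at most 0.837 FPKM in the other groups. Ccl5, a chemokine made by T and NK cells, was 24.1 FPKM there and at most 1.36 FPKM elsewhere. The genotype difference was near 0 at 100 days in both lists (medians -0.06 and 0.02) and large at 300 days (-3.73 and -1.81).

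Because the lymphocyte lists are near the detection floor in 3 groups, their counts are not support for a pattern: 11 of the 14 B cell genes and 8 of the 19 T cell genes passed the filter on low values only through the 300-day control. With no such filter 17 of the 18 B cell genes found and 18 of the 24 T cell genes found had an age contrast of -1 or below, with medians of -3.22 and -2.22. Some lymph node genes had their highest level in the same group. Ltb, the lymphotoxin subunit that organises lymphoid tissue, was 16.3 FPKM in the 300-day control and at most 0.568 FPKM elsewhere. Glycam1, a mucin of high endothelial venules that milk-producing epithelium also makes, was 73.6 FPKM there, 0.515 FPKM in the 100-day cKO and listed at 0 in the other groups. Of the 13 lymph node genes listed 7 were measured, 6 of them with an age contrast of -1 or below, but 5 of the 7 passed the filter only through the 300-day control, so this count is no support either. The part of such tissue in the result was not tested.

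Several antigen-presenting and macrophage genes also had their highest level in the 300-day control. Of 11 dendritic cell and MHC class II genes 6 had an age contrast of -1 or below (background 4.69%), with a median of -1.11. Of the 11, 2 passed the filter on low values only through the 300-day control, so the count is in part fixed by the filter. With no such filter 8 of the 14 genes found were at -1 or below, with a median of -1.11. H2-Aa and H2-Ab1, the chains of an MHC class II molecule, had age contrasts of -1.11 and -1.17; H2-Aa was 55.4, 35.2, 132 and 38.5 FPKM in the 100-day control, 100-day cKO, 300-day control and 300-day cKO. Of 19 macrophage genes 2 were at -1 or below and 1 at 1 or above, together 15.8% against 8.52% of all genes. Their median was -0.43. The gene at 1 or above was Cd14, a receptor for bacterial lipopolysaccharide, at 1.02. Lyz2, the lysozyme of myeloid cells, was 150 FPKM in the 300-day control and between 54.5 and 61.7 FPKM in the others. The lymphatic vessel and macrophage receptor Lyve1 was 15.9 FPKM there and between 4.04 and 5.73 FPKM elsewhere.

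Cxcl13 had the lowest age contrast of the genes above 0 in every group and at 5 FPKM or more in 1, and another shape. Cxcl13 (chr5:95956951-95961068), the chemokine that draws B cells into follicles of lymphoid tissue, was 0.152 FPKM in the 100-day control, 17.7 in the 100-day cKO, 11.1 in the 300-day control and 2.91 in the 300-day cKO. It was thus higher in cKO skin at 100 days and lower at 300 days, with genotype differences of 4.02 and -1.63 and an age contrast of -5.65. The summed level of the 14 B cell genes in the 100-day cKO, where Cxcl13 was highest, was 12.7 FPKM. It was 17.7 FPKM in the 100-day control and 17.9 FPKM in the 300-day cKO. Of the 14 genes 11 passed the filter on low values only through the 300-day control, so low sums in the other groups are in part built in. A link between Cxcl13 and B cells was not tested.

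Inner root sheath keratins were highest in the 100-day cKO. The inner root sheath is the sleeve that moulds the growing hair, and it has keratins of its own. Of 12 measured genes 8 had an age contrast of -1 or below (background 4.69%) and none of 1 or above, with a median of -1.49. All 12 genes found passed the filter, none through a single group. Krt72, a type II keratin of this layer (chr15:101776172-101786460), was 102 FPKM in the 100-day control, 575 in the 100-day cKO, 297 in the 300-day control and 219 in the 300-day cKO, an age contrast of -2.92. Krt28, a type I keratin of the same layer (chr11:99364872-99374903), was 123, 523, 253 and 222 FPKM in that order, an age contrast of -2.27. The 100-day cKO was highest for both, and the groups at 300 days lay between it and the 100-day control. Krt27 and Krt71 had age contrasts of -1.96 and -1.53. Tchh, the trichohyalin of root sheath and medulla, was 247, 957, 476 and 602 FPKM, an age contrast of -1.61. The list median of the genotype difference was 1.60 at 100 days and 0.18 at 300 days.

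Since these keratins had like profiles over the 4 groups, the promoters of the 2 with the lowest age contrasts are printed, each from 250 bases before to 50 bases after the RefSeq gene start (GRCm38.p6, the build also named mm10). Krt28 lies at chr11:99374854-99375153 and Krt72 at chr15:101786471-101786770, both on the minus strand and printed 5′ to 3′. Capitals mark the TATA-box letters TATAAA on either strand.
Krt28: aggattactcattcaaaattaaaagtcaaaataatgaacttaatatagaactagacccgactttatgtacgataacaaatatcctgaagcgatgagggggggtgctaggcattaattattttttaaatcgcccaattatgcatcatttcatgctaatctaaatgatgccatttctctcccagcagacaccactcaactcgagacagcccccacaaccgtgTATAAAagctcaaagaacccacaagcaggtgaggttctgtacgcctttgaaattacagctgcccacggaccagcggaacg
Krt72: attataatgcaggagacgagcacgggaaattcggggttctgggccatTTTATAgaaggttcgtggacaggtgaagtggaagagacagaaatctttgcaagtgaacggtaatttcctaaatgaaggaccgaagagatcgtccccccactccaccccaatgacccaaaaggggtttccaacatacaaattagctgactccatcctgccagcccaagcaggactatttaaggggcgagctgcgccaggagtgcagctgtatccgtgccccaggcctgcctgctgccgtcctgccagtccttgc
The letters begin 30 bases before the start in Krt28, and 203 bases before it, on the other strand, in Krt72. These positions count from the RefSeq start. The Krt72 window lies wholly outside the GENCODE span given above, since the annotations place the start of that gene differently. Of 32851 RefSeq promoters of this length 4473 (13.6%) hold them on either strand. The 2 promoters matched at 49.3% of aligned positions, near the 47.1% between Krt28 and the unrelated gene Stfa1. Neither window holds the AP-1 letters TGANTCA. These are descriptions of letters, not of binding.

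Pigment cell genes had a negative age contrast too, but with a list median below 0 at 300 days, where that of the inner root sheath was 0.18. Single genes did not part the lists so clearly. Krt72, Krt28 and Krt27 of the root sheath were also below control in the 300-day cKO, while Tchh was above it. Of 12 measured melanocyte genes 8 were at -1 or below (background 4.69%) and none at 1 or above, with a median of -1.52. The list median of the genotype difference was 0.93 at 100 days and -0.58 at 300 days. Trpm1, a cation channel of melanocytes, was 27.0 FPKM in the 100-day control, 59.7 in the 100-day cKO, 50.6 in the 300-day control and 23.4 in the 300-day cKO. It was the higher of the pair in cKO skin at 100 days and the lower at 300 days, with an age contrast of -2.20. Tyr, the enzyme of the first step of melanin synthesis, was 6.14, 17.4, 10.1 and 7.49 FPKM, an age contrast of -1.75. Pmel, which builds the fibrils on which melanin is laid down, had one of -1.80 and overlaps Cdk2 and Dgka. Dct and Tyrp1, enzymes later in melanin synthesis, had age contrasts of -1.66 and -1.39.

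Other follicle genes did not share 1 shape. Hair shaft keratins had much the same genotype difference at both ages, with list medians of 0.87 at 100 and 1.00 at 300 days. Past the size counted was 1 of 18 measured genes, 5.56% against 8.52% of all genes. Krt83 of the hair cortex was 102 and 235 FPKM in control and cKO skin at 100 days and 98.5 and 231 FPKM at 300 days, an age contrast of 0.03. The exception was Padi3, an enzyme that modifies trichohyalin, at 21.5, 61.2, 35.5 and 27.5 FPKM in the 100-day control, 100-day cKO, 300-day control and 300-day cKO, the shape of the root sheath genes and an age contrast of -1.82. Keratin-associated proteins, the matrix that cross-links hair keratin, differed from the keratins. Of 35 measured 9 had an age contrast of 1 or above (background 3.83%) and none of -1 or below, with a median of 0.30. Krtap19-1 was 155, 59.2, 57.7 and 144 FPKM, lower in cKO skin at 100 days and higher at 300 days, an age contrast of 2.68. It shares 11.9% of its windows of 75 bases, the read length in cycles, with Krtap19-2. Krtap19-5, which shares none, was 339, 161, 127 and 208 FPKM, an age contrast of 1.77.

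Of 24 genes of Wnt, FGF and BMP signalling 3 were at -1 or below and 1 at 1 or above, against 8.52% of all genes in either direction, with a median of 0.11. Fgf5, the growth factor that ends hair growth, was 0.801 FPKM in the 100-day control, 5.47 in the 100-day cKO, 2.59 in the 300-day control and 1.04 in the 300-day cKO, an age contrast of -2.66. Fgf18, which is known to hold follicles at rest and is also made in the root sheath, was 1.39, 6.09, 3.24 and 2.81 FPKM, an age contrast of -1.72. Fgf10, a growth factor made by the mesenchyme, was lower in cKO than in control skin at both ages, and more so at 100 days. Its level was lowest in the 100-day cKO, at 1.38 FPKM. At 300 days it was 4.57 and 2.22 FPKM in control and cKO skin, an age contrast of 1.42. Of the cell cycle genes 0 of 27 were past the size counted, and the median genotype difference was 0.45 at 100 days and 0.59 at 300 days.

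**Figure D4:**
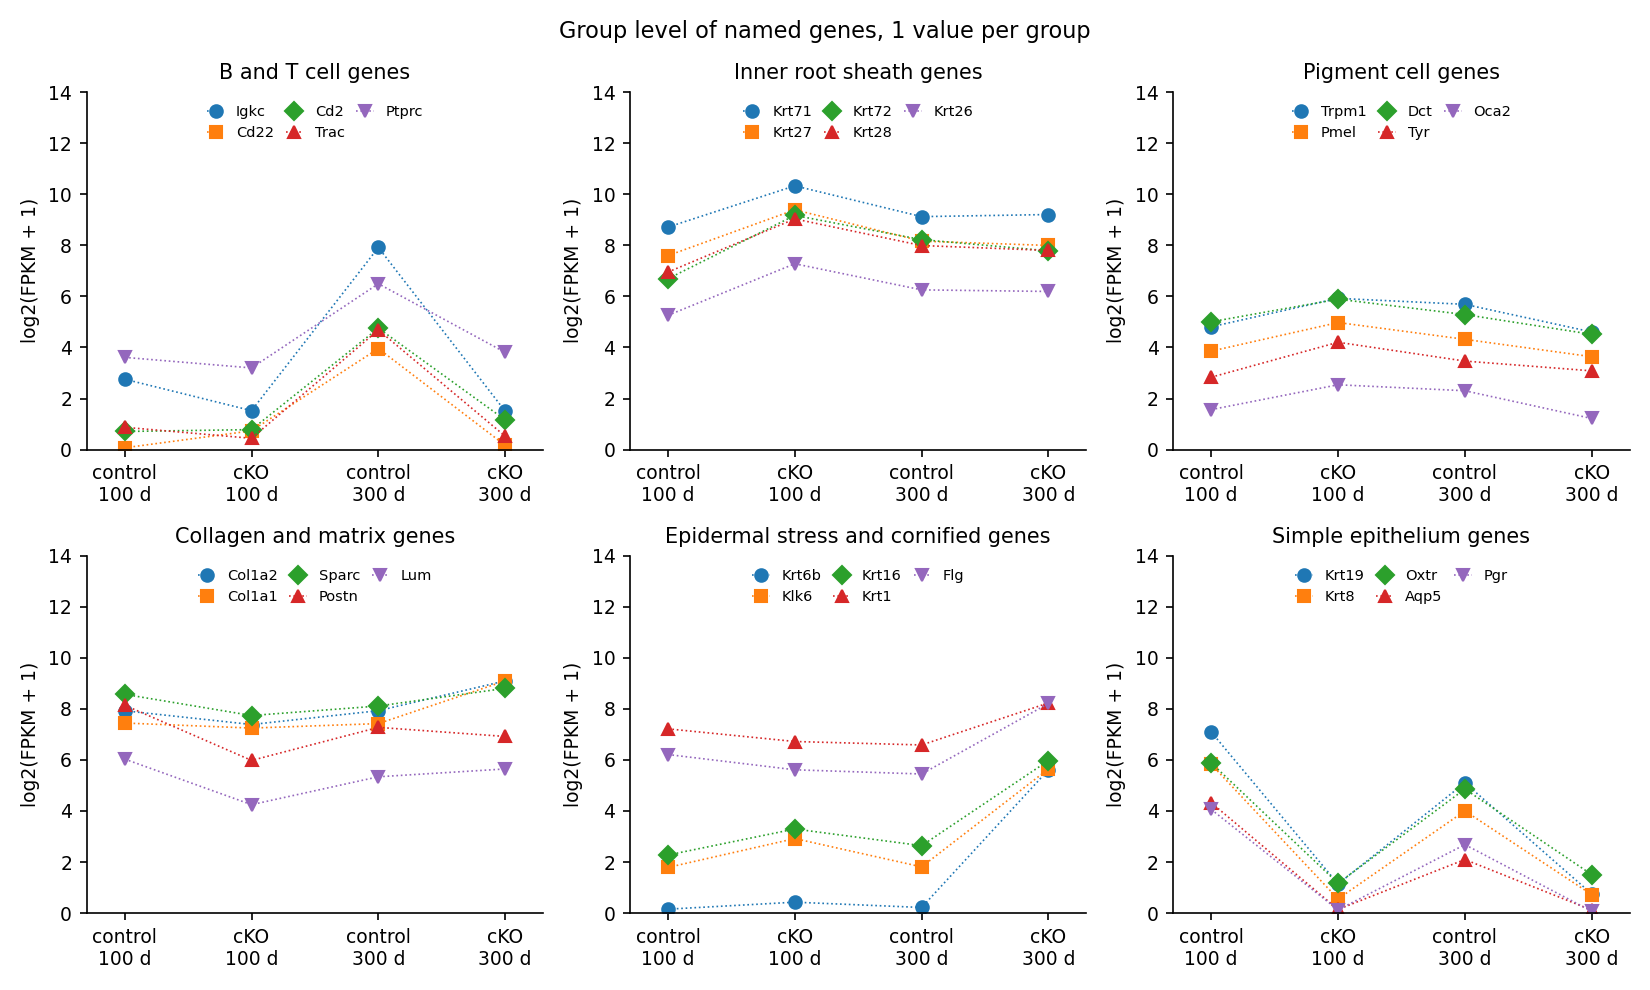
Each panel gives log2(FPKM + 1) of 5 genes in the 4 groups, with 1 value per group and no error; dotted lines only join the values of a gene. B and T cell genes peak in the 300-day control, inner root sheath genes in the 100-day cKO, epidermal genes such as Krt6b in the 300-day cKO, collagen and matrix genes are lowest in the 100-day cKO, and simple epithelium genes are high in both controls and more so at 100 days.

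Collagen and matrix genes had positive age contrasts, with the 100-day cKO low or the 300-day cKO high. Of 18 measured collagen chains 5 had an age contrast of 1 or above (background 3.83%) and none of -1 or below, and 17 were above 0, with a median of 0.65. The median genotype difference was -0.86 at 100 days and -0.19 at 300 days. Col1a1, a chain of type I collagen (chr11:94936224-94953042), was 173 FPKM in the 100-day control, 151 in the 100-day cKO, 170 in the 300-day control and 544 in the 300-day cKO. Col1a2, the other chain of type I collagen, was 242, 166, 242 and 545 FPKM. Both type I chains were highest in the 300-day cKO, with age contrasts of 1.87 and 1.71.

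The other chains past the size counted had their outlying value in the 100-day cKO. Col15a1, a chain of a basement membrane zone collagen, was 116, 29.2, 81.9 and 66.8 FPKM, an age contrast of 1.67. Col5a2, which starts fibrils of type I collagen, was 31.7 FPKM in the 100-day cKO against 87.8 FPKM in its control, and 66.8 against 67.3 FPKM at 300 days. Col6a3 had an age contrast of 1.26. Col3a1, left out of the counts because its row also names AC125167.1, was 1842, 881, 1736 and 2608 FPKM.

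Of 27 other matrix genes 5 had an age contrast of 1 or above (background 3.83%) and 1 of -1 or below (background 4.69%). Their median was 0.31. Tnc, which encodes tenascin C, was highest in the 300-day cKO, at 9.54, 6.38, 7.87 and 16.4 FPKM. Lum, the proteoglycan lumican that spaces collagen fibrils (chr10:97565128-97572703), was 64.4, 18.0, 39.5 and 49.0 FPKM in the 100-day control, 100-day cKO, 300-day control and 300-day cKO, an age contrast of 2.09. Postn, which encodes the collagen-binding protein periostin, was 281, 62.1, 154 and 120 FPKM, an age contrast of 1.80. Collagen processing genes are a separate list, with a median of 0.29. Of 15 measured 3 were at 1 or above (background 3.83%) and 1, Plod2, at -1 or below (background 4.69%). Sparc of this list, a collagen-binding protein, was 378, 212, 275 and 445 FPKM, an age contrast of 1.52. Serpinh1, the collagen chaperone, had an age contrast of 1.25, while Plod2, which hydroxylates collagen lysines, had one of -1.14. General fibroblast genes had 0 of 14 at 1 or above (background 3.83%), 2 at -1 or below (background 4.69%) and a median of -0.06.

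The 2 highest age contrasts of genes above 0 in every group belonged to the epidermal stress list, and both genes were high in the 300-day cKO alone. Of 17 measured genes 7 were at 1 or above (background 3.83%) and 4 at -1 or below (background 4.69%). Their median was 0.83 and ran from 0.13 to 2.06 over the processing alternatives. BC100530, a member of the stefin A family of cysteine protease inhibitors (chr16:36359382-36367748), was 4.86 FPKM in the 100-day control, 1.71 in the 100-day cKO, 1.41 in the 300-day control and 132 in the 300-day cKO, an age contrast of 6.90. Its family members Stfa1 and Stfa3 were 33.8 and 48.7 FPKM in the 300-day cKO. Stfa1 was 0.644 FPKM in the 100-day control and listed at 0 in the other groups, and Stfa3 was 7.78 and 0.202 FPKM in control and cKO skin at 100 days and listed at 0 in the 300-day control. BC100530 shares 22.4% of its windows of 75 bases with BC117090 and Stfa1, and Stfa1 10.7% with BC100530, so reads may be divided among them uncertainly. Stfa3 shares none of its 338 windows.

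Stfa1 and Stfa3 lie in 1 cluster on chromosome 16, and their promoters are printed because both genes were high in the 300-day cKO: Stfa1 at chr16:36276898-36277197 on the plus strand and Stfa3 at chr16:36455343-36455642 on the minus strand (RefSeq, GRCm38.p6, 5′ to 3′, from 250 bases before to 50 after the gene start). Capitals mark the letters TGANTCA of an AP-1 site, searched on both strands.
Stfa1: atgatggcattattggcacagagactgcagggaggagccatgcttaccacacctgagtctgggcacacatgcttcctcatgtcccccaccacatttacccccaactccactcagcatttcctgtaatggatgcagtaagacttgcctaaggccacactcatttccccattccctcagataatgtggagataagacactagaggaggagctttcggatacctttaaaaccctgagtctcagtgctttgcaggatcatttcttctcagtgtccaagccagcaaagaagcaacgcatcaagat
Stfa3: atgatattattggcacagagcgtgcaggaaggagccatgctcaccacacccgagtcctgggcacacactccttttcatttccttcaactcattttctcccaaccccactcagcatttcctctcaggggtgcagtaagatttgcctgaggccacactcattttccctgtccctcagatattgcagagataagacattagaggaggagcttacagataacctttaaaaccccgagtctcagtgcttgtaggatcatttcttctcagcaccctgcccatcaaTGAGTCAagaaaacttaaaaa
The windows matched at 248 of 306 aligned columns (81.0%). The AP-1 letters occur once in Stfa3, beginning 29 bases after the start, and not in this window of Stfa1. GENCODE places the Stfa1 start at chr16:36276951, upstream of the RefSeq start and inside the window. They occur in 2565 of 32851 promoters (7.81%), and TATAAA in neither window.

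Wound-linked keratins followed the stefins. Krt6b, a keratin of injured epidermis and the follicle (chr15:101676023-101680287), was 0.114, 0.347, 0.167 and 47.9 FPKM in the 100-day control, 100-day cKO, 300-day control and 300-day cKO, an age contrast of 5.12. It shares 39.6% of its windows with Krt6a, Krt5 and 2 predicted genes. Krt16, its usual partner, was 3.84, 8.81, 5.24 and 61.8 FPKM, an age contrast of 2.31. The cytokine Il1b was 8.18 FPKM in the 300-day cKO and at most 0.726 FPKM elsewhere. S100a9, a calcium-binding protein of neutrophils and stressed keratinocytes, was 21.9 FPKM in the 300-day cKO and at most 2.69 FPKM in the other groups.

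The list was not of 1 kind, since other stress genes were already high in the 100-day cKO. S100a8, the partner of S100a9, was 2.53 and 21.4 FPKM in control and cKO skin at 100 days and 8.96 and 19.9 FPKM at 300 days, an age contrast of -1.59. Sprr1a, a cornified envelope precursor, was 43.5, 118, 48.0 and 47.4 FPKM, an age contrast of -1.44. Neutrophil genes give little more, with 3 of 12 listed genes measured.

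Several genes of the cornified layer were also highest in the 300-day cKO. Of 30 measured genes of differentiated epidermis 6 had an age contrast of 1 or above (background 3.83%) and none of -1 or below. Their median was 0.35. Flg, the precursor of filaggrin (chr3:93273523-93293686), was 73.0 FPKM in the 100-day control, 47.9 in the 100-day cKO, 42.6 in the 300-day control and 295 in the 300-day cKO. Its age contrast was 3.36, from the highest of its 8 rows in the table. Casp14, the protease of cornification, was 26.1 FPKM in the 300-day cKO, 5.86 in its control and 9.34 in the 100-day cKO, an age contrast of 2.20. Krt1, a keratin of the layers above the basal one, was 148, 104, 94.9 and 299 FPKM, an age contrast of 2.14. Klk6, a skin protease, was 2.46, 6.57, 2.51 and 49.1 FPKM, an age contrast of 2.70. Of 14 basal keratinocyte genes 1 was past the size counted, 7.14% against 8.52% of all genes, with a median of 0.25.

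Secreted factors and proteases linked to inflammation and senescence included several of this shape. Of 14 such genes 5 were at 1 or above (background 3.83%) and 1 at -1 or below (background 4.69%), with a median of 0.66. Of the 14, 3 passed the filter on low values through a single group, so the count is in part fixed by the filter. With no such filter 5 of the 17 genes found were at 1 or above and 1 at -1 or below, with a median of 0.37. Mmp3, a matrix-degrading metalloproteinase, was 6.30, 3.78, 4.76 and 17.9 FPKM in the 100-day control, 100-day cKO, 300-day control and 300-day cKO, an age contrast of 2.32. Mmp13, a collagenase, was 6.88 FPKM in the 300-day cKO and at most 0.280 FPKM elsewhere. The 1 gene in the other direction was Igfbp3, which binds IGFs: it was 163 FPKM in the 100-day cKO and between 36.3 and 48.0 FPKM in the other groups, an age contrast of -1.75. Igfbp2, a related protein, had one of 1.90. Of 19 IGF signalling genes 1 was at 1 or above and 2 at -1 or below, together 15.8% against 8.52% of all genes.

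Fos and Fosb, AP-1 subunits of the immediate early response, had genotype differences of opposite sign at the 2 ages. Fos was 21.8 FPKM in the 100-day control, 6.76 in the 100-day cKO, 6.43 in the 300-day control and 18.0 in the 300-day cKO, an age contrast of 2.91. Fosb was 5.07, 0.397, 0.609 and 2.35 FPKM in the same order, an age contrast of 3.18. Of 9 measured AP-1 genes 2 were at 1 or above (background 3.83%) and 1, Batf, at -1 or below (background 4.69%). Immediate early and heat shock genes, which also respond to tissue handling, had 3 of 19 at 1 or above (background 3.83%) and a median of 0.11. Dusp1, a phosphatase of this response, was 24.2, 9.81, 19.8 and 22.9 FPKM, an age contrast of 1.42, and overlaps Ergic1. The part of handling in these values was not tested.

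Many fast skeletal muscle genes were lowest in the 100-day cKO. Of 21 measured genes 10 had an age contrast of 1 or above (background 3.83%) and none of -1 or below, with a median of 0.997. The 10 include Ttn, described below. The median genotype difference was -0.73 at 100 days and 0.22 at 300 days. Myh4, a fast myosin heavy chain (chr11:67238029-67260446), was 1143 FPKM in the 100-day control, 389 in the 100-day cKO, 1017 in the 300-day control and 1216 in the 300-day cKO, an age contrast of 1.81. Ryr1, the calcium release channel of muscle, was 65.5, 22.6, 61.1 and 71.3 FPKM, an age contrast of 1.71. Ttn, the giant spring protein titin, was 1067, 483 and 1175 FPKM in the 100-day control, 100-day cKO and 300-day cKO and is listed at 0 in the 300-day control, where other muscle genes were high, so no fold is given. Mb, the oxygen store myoglobin, differed at 300 days instead, at 237, 212, 185 and 457 FPKM, an age contrast of 1.46, and overlaps Apol6.

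Slow and cardiac muscle genes had no common direction, with 3 of 12 at 1 or above (background 3.83%) and 5 at -1 or below (background 4.69%). Of the 12, 3 passed the filter on low values through a single group. Myl2, a slow myosin light chain, was 28.7 FPKM in the 100-day cKO and at most 1.54 FPKM elsewhere, and overlaps Ccdc63. Actc1, the cardiac actin, was 12.4, 0.891, 3.83 and 3.12 FPKM, an age contrast of 2.59. How much muscle each piece of skin held was not tested.

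Most fat genes were lower in cKO skin at both ages, more so at 100 days. Of 22 measured adipocyte genes 3 had an age contrast of 1 or above and none of -1 or below, 13.6% against 8.52% of all genes. Above 0 were 19 of the 22, and the median was 0.66. The median genotype difference was -1.58 at 100 days and -1.05 at 300 days. Adrb3, the adrenergic receptor that drives lipolysis, was 19.9, 3.52, 9.27 and 6.74 FPKM in the 100-day control, 100-day cKO, 300-day control and 300-day cKO, an age contrast of 1.80. Lep, the adipocyte hormone leptin, was 36.1, 3.73, 17.5 and 4.37 FPKM, an age contrast of 1.19. For both, the level was lower at 300 than at 100 days in control skin and higher in cKO skin. Pparg, the master regulator of fat cells, and Cfd, the serum protease adipsin, had age contrasts of 0.05 and 0.01. Scd1, an enzyme of fatty acid desaturation, was 1985, 372, 1176 and 521 FPKM, an age contrast of 1.24. Of 13 fatty acid synthesis genes Scd1 was the 1 past the size counted, 7.69% against 8.52% of all genes, with a median of 0.54.

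Most genes of simple and secretory epithelium were lower in cKO skin at both ages, more so at 100 days, with list medians of -3.04 and -1.40. Of 25 measured genes 11 had an age contrast of 1 or above (background 3.83%) and none of -1 or below, with a median of 0.91. Of the 25, 2 passed the filter on low values through a single group. With no such filter 12 of the 33 genes found were at 1 or above and none at -1 or below, with a median of 0.59. Krt8, a keratin of simple epithelium (chr15:101996698-102004482), was 55.8 FPKM in the 100-day control, 0.472 in the 100-day cKO, 15.0 in the 300-day control and 0.654 in the 300-day cKO, an age contrast of 1.99. Krt19, another such keratin, was 136, 1.21, 33.4 and 0.684 FPKM, an age contrast of 1.60. For these keratins the 100-day control lay above the 300-day control, while both cKO levels were near the 1 FPKM added before taking logs. The summed FPKM of the list was 798, 171, 308 and 123. With 0.1 FPKM added instead, the list median was 0.53, and the age contrasts of Dmbt1 and Wfdc2 and of the chemokine Cxcl15 were negative instead of positive.

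Of 6 measured genes of steroid hormone action and pregnancy 3, Esr1, Pgr and Ido1, had an age contrast of 1 or above. The 2 at -1 or below were Glycam1 and Greb1. Of the 6, 3 passed the filter on low values through a single group, 2 of them through the 300-day control. This count is therefore no support for a pattern. With no such filter 3 of the 11 genes found were at 1 or above and 2 at -1 or below, with a median of 0. Esr1, the estrogen receptor, was 6.22 FPKM in the 100-day cKO against 18.6 FPKM in its control and 9.75 FPKM in the 300-day cKO, an age contrast of 1.16. Pgr, the progesterone receptor, was 15.7, 0.0939, 5.43 and 0.0525 FPKM, and Oxtr, the oxytocin receptor of smooth muscle and myoepithelium, was 57.9, 1.25, 28.0 and 1.85 FPKM. Their age contrasts were 1.32 and 1.36. Csn3, the milk protein kappa-casein, was 20.7, 1.46, 7.38 and 0.222 FPKM, and Ltf, lactoferrin, was 55.5, 1.05, 24.2 and 0.264 FPKM. Age contrasts of Csn3 and Ltf, 0.37 and 0.47, were below the size counted. The Y-linked genes given above separate the same groups, and the part of sex in these values was not tested. Ido1, which starts the breakdown of tryptophan, was 20.7 FPKM in the 100-day control and at most 2.13 FPKM in the other groups, an age contrast of 2.97.

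No measured gene of the respiration or cytosolic ribosome lists was past the size counted. Of 35 measured nuclear genes of oxidative phosphorylation 29 had an age contrast above 0, with a median of 0.24, inside the middle range of all genes (quartiles -0.32 and 0.29). Ndufa5, a complex I subunit, was 224, 151, 224 and 257 FPKM, an age contrast of 0.76, and Cox6c, a complex IV subunit, was 470, 281, 468 and 430 FPKM, one of 0.62. Of 28 ribosomal protein genes listed 18 were measured, all of them below 0, with a median of -0.39. Rps3, left out of the counts because its row also names Snord15b, was past the size counted. It was 1383, 2548, 2714 and 2236 FPKM, an age contrast of -1.16. Rpl11 of the large subunit was 410, 491, 515 and 349 FPKM, an age contrast of -0.82. With all groups rescaled to equal totals, the median over all genes moved from -0.02 to 0.08, and the medians of both lists kept their sign under every alternative run.

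Clock genes had a median age contrast of -0.42, with 13 of 18 below 0. Per1, a repressor of the clock loop, was 15.2, 29.7, 15.8 and 12.5 FPKM in the 100-day control, 100-day cKO, 300-day control and 300-day cKO, an age contrast of -1.25. Cry2, another repressor, had one of -1.01. No source used here gives the time of day of sampling, and its part was not tested. Interferon response genes had a median of 0.12, with 2 of 22 at 1 or above (background 3.83%). Blood vessel, sebaceous gland and cholesterol synthesis lists had none past the size counted, of 15, 11 and 14 measured genes, against 8.52% of all genes.

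A set of genes kept the same genotype difference at both ages. Of the 192 genes past 2-fold at both ages in the same direction 101 had an age contrast under 0.5 in size. Sncg, which encodes gamma-synuclein, known from nerve and fat, was 124 and 12.7 FPKM in control and cKO skin at 100 days and 65.8 and 5.87 FPKM at 300 days, an age contrast of -0.09. Akr1c18, which inactivates progesterone, was 14.1 and 2.85 FPKM at 100 days and 15.2 and 3.64 FPKM at 300 days. Atp13a4, a P-type ATPase, was higher in cKO skin, at 12.9 against 3.45 FPKM and at 11.1 against 3.44 FPKM. Ptp4a1, a phosphatase, was 69.0 and 21.3 FPKM at 100 days and 67.6 and 15.4 FPKM at 300 days. Of the 36 same-direction genes whose age contrast was at least 1 in size, 28 had the smaller genotype difference at 300 days.

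Several genes outside the lists ranked among the highest and lowest age contrasts. Rhod, a small GTPase of endosome movement (chr19:4425459-4439432), was 7.07, 8.92, 6.85 and 109 FPKM, an age contrast of 3.51, high in the 300-day cKO alone. Clec4d, a lectin receptor of myeloid cells, was 8.47 FPKM in the 300-day cKO and at most 0.139 FPKM elsewhere. Gsdmc, a pore-forming gasdermin of epithelium, was 5.09 FPKM there and at most 0.769 FPKM elsewhere. Slamf6, a receptor of lymphocytes, was 7.28 FPKM in the 300-day control and at most 0.732 FPKM elsewhere.

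Of the 1034 genes past the size counted 46 were listed at 0 in at least 1 of the 4 groups, where an exact 0 can be a failed estimate. Lars2, the mitochondrial leucyl-tRNA synthetase, was 8767 FPKM in the 100-day control and listed at 0 in the other 3 groups. Defb8, a defensin, was 18.6 and 373 FPKM in cKO skin at 100 and 300 days and listed at 0 in both controls. The tRNA gene mt-Tl1 was 203 FPKM in the 100-day cKO and 157 FPKM in the 300-day control and listed at 0 in the others. Leaving out genes listed at 0, 446 genes were at 1 or above and 542 at -1 or below.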

How the data were processed

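RNA of total skin was sequenced in single reads. The authors deposited a table of FPKM values, 1 per group and gene row, made with HISAT2, Cufflinks and Cuffdiff on mm10, per the submitters' processing notes; their versions, the annotation and how samples were combined are not given in the sources used here. Depth and the spread between mice are unknown, since single-sample values were not used here. The FPKM of the 4 groups summed to between 595975 and 692242. Of 46744 rows, 1057 naming several symbols were left out, as were clone-style, predicted and pseudogene names; the highest row of 52 repeated symbols was kept, and 98.5% of names matched GENCODE M21. Age contrasts were computed on log2(FPKM + 1), which understates differences of low genes, in Python 3.11.15 with pandas 2.3.3, and the calculation was tested on simulated data. Genes were counted at a size of 1. Alternatives changed the pseudocount, filter, scaling and gene set.

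The text takes its genes from Igf1, Junb and Sod2; the 12 highest and 12 lowest age contrasts with at least 5 FPKM in 1 group and none listed at 0; the 6 highest and 6 lowest among opposite-sign genes; the 6 largest same-direction genes each way; up to 6 each way listed at 0; and up to 5 members of each list. Krt16, Krt19, Krt71, Krt83, Dct, Tyrp1, Cfd, Pparg, Sprr1a, H2-Aa, Sod1, Ndufa5, Cox6c and Rpl11 were added after their values were seen. Members and lists were chosen with earlier results of these data known. Results on some items are not reported here.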

Additional observations from a re-analysis of the deposited data

Results flagged for a closer look

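In 18 genes with at least 5 FPKM in 1 group and none listed at 0, the genotype difference was at least 2-fold at both ages but of opposite sign. With 1 value per group this reversal was not tested. The 6 highest and 6 lowest age contrasts among them are given. BC100530 (age contrast 6.90), Sbk2 (4.11), Serpinb6d (3.72), Fosb (3.18), Fam166a (3.11) and Fos (2.91) were below control in the 100-day cKO and above it in the 300-day cKO. Sbk2, a kinase, was 18.3 FPKM in the 100-day control, 4.40 in the 100-day cKO, 10.4 in the 300-day control and 53.9 in the 300-day cKO, and its span overlaps that of Ssc5d. Serpinb6d, of the serine protease inhibitor family, was 11.8, 1.60, 3.04 and 9.78 FPKM in the same order. Fam166a, which overlaps Tubb4b, was 2.93, 0.175, 1.89 and 6.42 FPKM.

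Cxcl13 (-5.65), Serpina3j (-2.95), Mucl1 (-2.94), Serpina3g (-2.70), Lyz1 (-2.49) and Kbtbd11 (-2.43) were higher in cKO skin at 100 days and lower at 300 days. Serpina3g and Serpina3j are members of 1 family of protease inhibitors. Serpina3g was 2.40, 8.14, 8.20 and 2.80 FPKM, with the 100-day cKO and the 300-day control at one level, and shares 8.91% of its windows of 75 bases with other members. Serpina3j was 1.85, 9.47, 4.07 and 1.41 FPKM. Lyz1, a lysozyme, was 5.18, 13.4, 15.5 and 5.85 FPKM. Mucl1 was 7.27 FPKM in the 100-day cKO and 0.607 FPKM in the 300-day cKO, and Kbtbd11 was highest in the 100-day cKO too.

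Rows naming several symbols were outside the counts, and 3 of them were present in the 100-day cKO alone and listed at 0 in both controls and in the 300-day cKO. The row of Rn7s2 and AC157822.1 was 328 FPKM there, that of Rn7s1 and AC099934.1 was 258 FPKM, and that of Gm25384 and Gm29597 was 14.4 FPKM. The Rn7s genes encode the RNA of the signal recognition particle. The part of the 2 kits for removing ribosomal RNA in these levels was not tested.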

How the results depend on the processing

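Of 215 genes examined by name, 149 had an age contrast of at least 1 in size. Of these, 143 had one in the same direction under every alternative run that still held the gene. There were 12 alternatives, and those that changed the filter or gene set left some named genes out. The sign turned for 3 genes, all with 0.1 FPKM added in place of 1: Cxcl15 (-0.046), Dmbt1 (-0.26) and Wfdc2 (-0.24). With a mean of at least 5 FPKM, 287 age contrasts were higher and 250 lower. That filter left 171 genes higher and 332 lower at 100 days, 148 higher and 273 lower at 300 days, 156 higher and 68 lower from 100 to 300 days in control skin, and 176 and 85 in cKO skin. The group farthest from the others was then the 300-day control for 110 genes, against 319 before, the 100-day control for 100, the 100-day cKO for 206 and the 300-day cKO for 121. With 0.1 FPKM added, 467 genes were higher and 810 lower at 100 days and 374 higher at 300 days. From 100 to 300 days 211 genes were then lower in control skin, and 473 higher and 364 lower in cKO skin. The 100-day control was farthest for 277 genes and the 300-day cKO for 348. Groups rescaled to equal totals gave 695 age contrasts higher and 537 lower, against 465 and 569, with 796 genes lower at 100 days, 234 lower with age in control skin and the 100-day control farthest for 278. With no filter the 300-day control was farthest for 481. Counts including rows of several symbols, or without other-tissue and sex-linked genes, were chosen after seeing the data and stayed within 1.5 times those above. No paired analysis was possible because the deposited table holds 1 value per group, and for that reason no sample could be left out in turn. Without counts, the error of a low FPKM value is unknown.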
